A study of Homo sapiens with 11 samples.

Results

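The sites described here were Ikaros peaks found in CX-4945-treated Nalm6 cells and in no other list of the series. They were chosen by the peak calls: the peaks of the Nalm6 list on chromosomes 1 to 22 and X that shared not a single base with any peak of the JM1-CX, JM1-WT, REH-WT or 697-WT lists. The rule held for 10354 of the 70866 Nalm6 peaks on these chromosomes, which is 14.6% (95% exact binomial interval 14.4% to 14.9%). The 5 lists together held 300033 peaks. The sites are called Nalm6-alone sites below, and the other 60512 peaks of the Nalm6 list are called shared peaks. Because the calls themselves chose the sites, absence from the other lists is not a finding.

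Ikaros was mapped by chromatin immunoprecipitation and sequencing in 4 human B-cell precursor leukaemia lines. Nalm6 cells and 1 set of JM1 cells (JM1-CX) were exposed to 20 µM CX-4945 for 1 day. JM1-WT, REH-WT and 697-WT were untreated JM1, REH and 697 cells. The antibody in Nalm6 and 697 cells is labelled as affinity-purified, and that in JM1 and REH cells as a Bethyl product. No untreated Nalm6 list was analysed here, and no other list joined the Nalm6 line to the drug, so line, drug and antibody cannot be told apart at these sites. The labels name 2 Ikaros libraries for Nalm6 but the peaks came as 1 list. With 1 list per condition no difference between conditions was tested and no p-value is given, and the intervals printed cover counting error only.

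Ikaros, the product of IKZF1, is a zinc finger DNA-binding protein needed for lymphoid development, and loss or mutation of IKZF1 is a hallmark of high-risk B-cell precursor leukaemia. It binds short sequences built around a GGGAA core, and it works in part by bringing chromatin remodelling complexes to its targets. Casein kinase II (CK2) phosphorylates Ikaros and weakens its binding to DNA, and CX-4945 (silmitasertib) inhibits CK2. NALM-6 is also known for a DUX4 rearrangement, which drives a double homeodomain factor that B cells do not normally make.

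The 2 sequences below show how unlike each other 2 of the strongest Nalm6-alone sites outside promoters were. They are among the 3 with the highest score in the authors' list, a peak strength of unstated definition. Both are read from GRCh38 on the plus strand. Neither holds the longer Ikaros core TGGGAA on either strand, and only that core would be in capitals. The shorter core GGGAA does occur in the IKZF1 peak. The first is the whole peak in IKZF1 at chr7:50376538-50376786, and the other is the central 300 bp of the peak nearest FO538757.1, at chr1:181174-181473.
IKZF1: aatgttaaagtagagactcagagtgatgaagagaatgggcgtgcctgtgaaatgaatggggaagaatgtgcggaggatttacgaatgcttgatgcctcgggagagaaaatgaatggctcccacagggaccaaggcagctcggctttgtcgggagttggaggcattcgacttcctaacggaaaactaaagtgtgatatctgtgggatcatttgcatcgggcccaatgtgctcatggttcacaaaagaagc
FO538757.1: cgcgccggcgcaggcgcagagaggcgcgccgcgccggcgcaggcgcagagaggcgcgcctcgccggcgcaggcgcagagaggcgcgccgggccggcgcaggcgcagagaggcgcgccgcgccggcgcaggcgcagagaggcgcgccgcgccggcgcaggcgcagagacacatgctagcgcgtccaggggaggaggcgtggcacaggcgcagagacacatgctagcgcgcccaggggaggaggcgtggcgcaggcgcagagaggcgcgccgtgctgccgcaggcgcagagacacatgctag
The IKZF1 site was 48.2% GC and its bases were coding sequence. The FO538757.1 site, near the end of the short arm of chromosome 1, was 78.7% GC with 52 CpG dinucleotides and was built of repeats: its most frequent run of 12 bases occurred 9 times, against 1 in the IKZF1 peak.

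The site in IKZF1 stood apart from every other Nalm6-alone site. Its score of 224 was the third highest of all 70866 Nalm6 peaks, while the next Nalm6-alone site scored 67 and the median was 14 (interquartile range 12 to 18). The peak was 249 bp wide, close to the narrowest peak of the Nalm6 list at 248 bp. It lay inside exon 4 (chr7:50376533-50376793, GRCh38), which is coding over its full 261 bp, and ended 5 bp and 7 bp short of the exon's edges. It covered 95.4% of that exon. The nearest peak of any other list was 2329 bp away.

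Nalm6 cells had 3 further peaks along IKZF1, all shared. One, at chr7:50399675-50400732 with a score of 117 (rank 14), spanned the coding part of the last exon, exon 8. The same stretch carried a peak in each of the other lists, with scores of 14 in JM1-CX, 12 in JM1-WT, 35 in REH-WT and 17 in 697-WT. The promoter peaks had scores of 52 in Nalm6, 46 in JM1-CX, 26 in JM1-WT, 92 in REH-WT and 79 in 697-WT. Scores come from separate lists and are given side by side without a comparison of size. The coding parts of the remaining exons were 168 bp or less, and no Nalm6 peak lay on them. A peak can be wider than the exon under it: in JM1-CX a peak of 340 bp covered exon 3, of 120 bp.

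**Figure D1:**
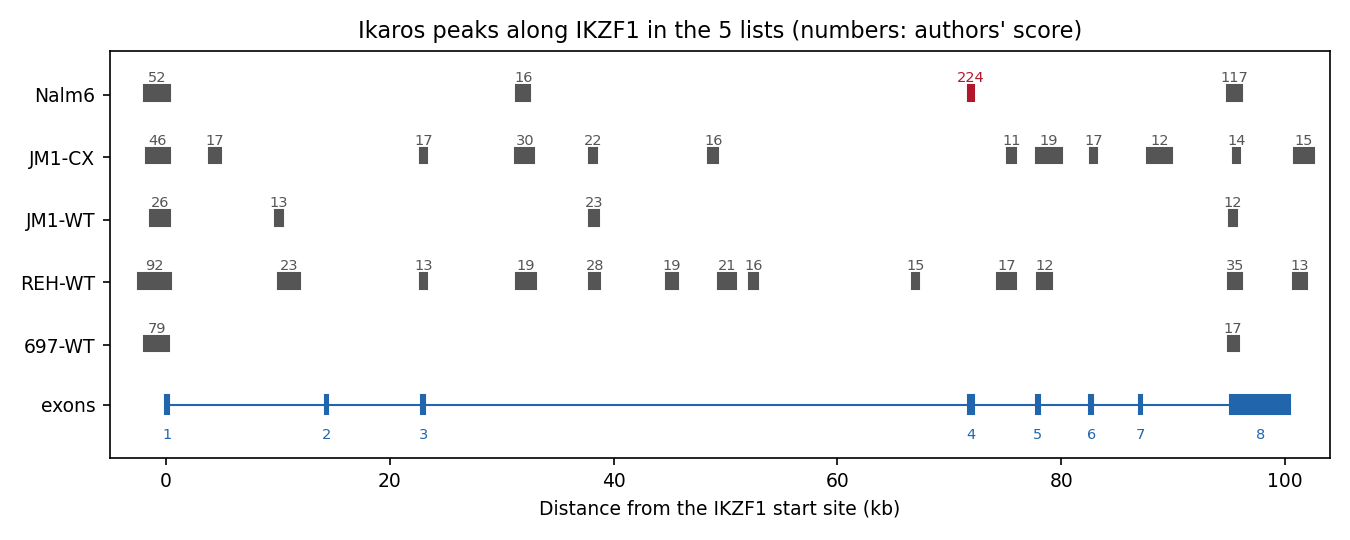
Ikaros peaks of the 5 lists along IKZF1, as distance in kb from its start site, with the authors' score above each peak and the exons of 1 transcript below. The Nalm6-alone peak with a score of 224 (red) sits on exon 4, where no other list has a peak, and a shared peak sits at the start of exon 8 in all 5 lists.

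A peak with the outline of an exon was rare. Only 9 Nalm6-alone sites (0.0869%) had both edges within 20 bp of the edges of an annotated exon, against 56 shared peaks (0.0925%). After IKZF1 the highest score among the 9 was 26, at an exon of FRMD6, a scaffold protein of the Hippo pathway. Whether DNA other than the chromosomal locus, such as spliced IKZF1 sequence, added reads to the peaks on exons 4 and 8 was not tested.

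Among promoter sites the highest scores were at genes of varied function. The top site, with a score of 59, lay 25 bp from a start site of WDR17, a WD-repeat gene, at chr4:176065678-176066126. It was followed by NRBF2P2, a processed pseudogene, with a score of 49, by ADGRL4, an adhesion receptor of blood vessels, and MS4A13, of the same family as the B-cell gene encoding CD20, with 48 each, and by MPP3, a membrane scaffold gene, with 47. The next in rank were AC022306.1 with 46, PABPC1L with 44, AC073136.1 with 43, ANO3 with 42 and ZZEF1 with 41. The peaks at these 10 start sites were narrow, 248 to 485 bp. The nearest peak of another list was 238606 bp from the site at ADGRL4, 63075 bp from that at WDR17 and 1476 bp from that at NRBF2P2.

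Outside promoters the site nearest FO538757.1 scored 65, and the scores that followed ran close together. A site nearest AGPAT4, an enzyme of phospholipid synthesis, and a site nearest MUC5AC, a gel-forming mucin, scored 58 each. A site in an intron of MTARC1 scored 57, a site nearest PIEZO2, a mechanically gated channel, and a site in an intron of CPT1A, the enzyme that passes fatty acids to mitochondria, scored 53 each, and sites nearest LINC02843 and in SLC35F1 scored 52 each. The site nearest FO538757.1 was isolated. Its nearest peak of another list was 640833 bp away, the largest distance of any Nalm6-alone site.

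Most Nalm6-alone sites lay in introns and intergenic DNA and few in promoters. In the authors' annotation 46.6% were intronic (95% interval 45.6% to 47.5%), against 37.2% of shared peaks, and 38.6% were intergenic (37.7% to 39.6%), against 24.2%. Promoters held 581 sites, 5.61% (5.18% to 6.07%), against 21.6% of shared peaks (21.2% to 21.9%). With each list limited to its 19610 top-scored peaks the promoter share was 12% of sites, against 43.7% of shared peaks, and by the rule of a start site within 1000 bp of the peak centre it was 10.3% of sites, against 34.8% of shared peaks. Exons held 4.36%, against 9.21%, and transcript ends 4.83%, against 7.84%. The median site lay 10121 bp from the nearest start site (interval of the median 9828 to 10509 bp), against 3322 bp for shared peaks, and 11.04% of sites were over 50000 bp from any start site, against 4.33%.

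A like makeup by annotation class was seen in the other lists. The peaks found in a single list of the other lines had promoter shares of 5.02% in JM1-CX, 4.90% in JM1-WT, 5.76% in REH-WT and 4.82% in 697-WT, and intergenic shares of 37.2% to 41.9%. Their number differed between the lists. Single-list peaks were 14.6% of the Nalm6 list, against 28.3% of JM1-CX, 8.46% of JM1-WT, 24.3% of REH-WT and 5.08% of 697-WT. These shares moved with the length of the lists, which ran up to 88622 peaks in JM1-CX and down to 19610 in 697-WT.

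**Figure D2:**
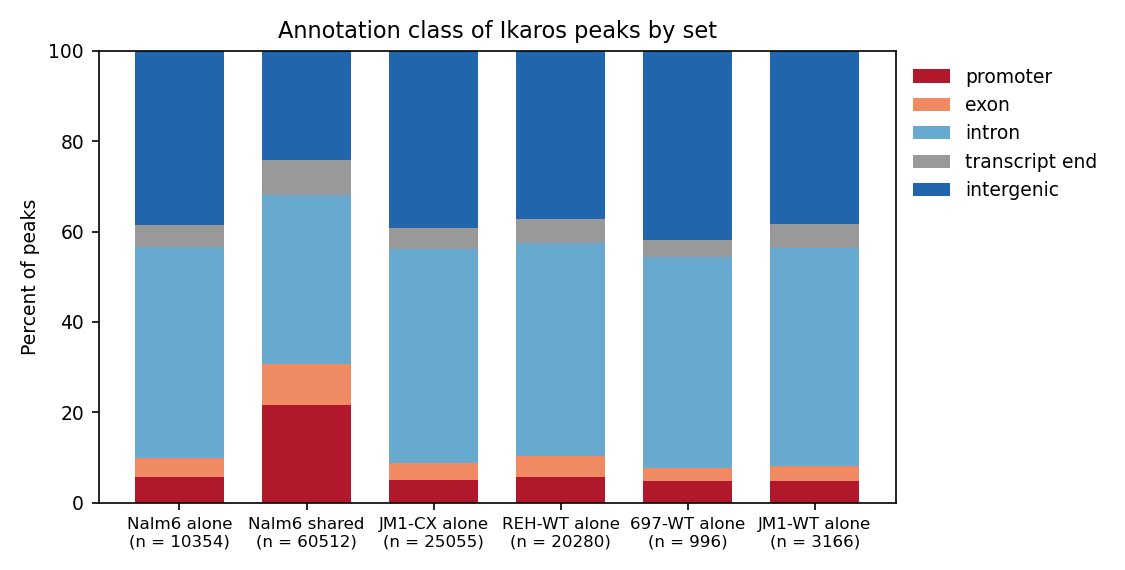
Percent of peaks in each annotation class (y axis, stacked to 100) for Nalm6-alone sites, shared Nalm6 peaks and the single-list peaks of the other 4 lists, with the number of peaks under each bar. The Nalm6-alone bar has 5.61% promoters against 21.6% in the shared bar, and resembles the single-list bars of the other lines.

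The makeup of Nalm6 peaks changed stepwise with the number of other lists that held them. Of the 70866 peaks, 11622 were in 1 other list, 22331 in 2, 14678 in 3 and 11881 in all 4. From 0 to 4 other lists the promoter share was 5.61%, 8.38%, 13.5%, 24.8% and 45.5%, and the intergenic share was 38.6%, 35.2%, 28.2%, 20.6% and 10.2%. The median score over the same steps was 14, 16, 19, 24 and 38, and the median width was 370, 492, 815, 1273 and 1950 bp. Nalm6-alone sites were thus one end of a range. Of the peaks held by exactly 1 other list, 6513 were shared with REH-WT, 4670 with JM1-CX, 309 with JM1-WT and 130 with 697-WT.

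Nalm6-alone sites were weak and narrow peaks for the most part. They made up 41.3% of Nalm6 peaks with a score of 10 to 12, 25.8% of those with 13 to 15, 15.3% of those with 16 to 20, 7.52% of those with 21 to 30 and 1.90% of those with 31 or more. The median width was 370 bp (interquartile range 292 to 623 bp), against 990 bp for shared peaks, and the sites covered 5.29 Mb in all, against 93.8 Mb. A wider peak has more bases with which to overlap another list, so width and score are bound to the rule and carry no test. The widest sites were 3094 bp nearest LBX1-AS1, 2808 bp in BMERB1, 2784 bp nearest AC013391.2, 2667 bp nearest LINC01672 and 2657 bp nearest AC124944.2, all with scores of 12 to 23.

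**Figure D3:**
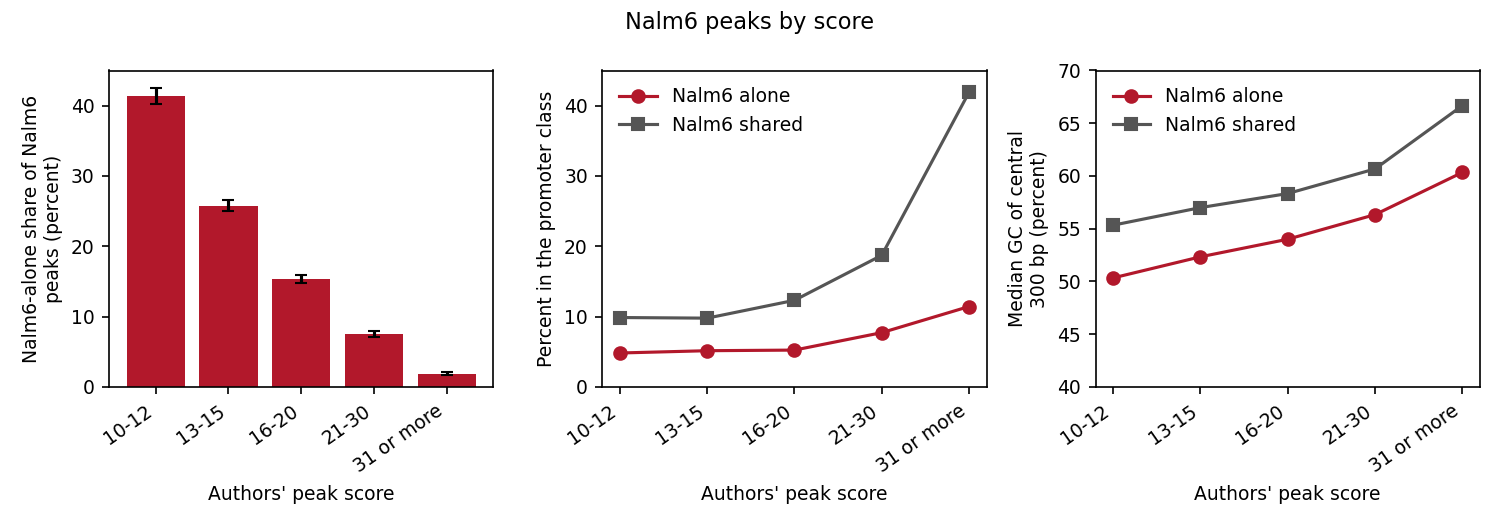
Nalm6 peaks by the authors' score (x axis, 5 ranges): the share that were Nalm6-alone with its 95% interval (left), and the promoter share (middle) and median GC (right) of Nalm6-alone sites (red) and shared peaks (grey). The Nalm6-alone share was 41.3% in the lowest range and 1.90% in the highest, and the red points lie under the grey points in every range.

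The difference in makeup was also seen among narrow, weak peaks. Among Nalm6 peaks no wider than 500 bp and scoring no more than 20, the promoter class held 4.90% of 5629 Nalm6-alone sites (95% interval 4.35% to 5.50%), against 10.4% of 8473 shared peaks (9.71% to 11.02%). Median GC in these peaks was 53.3% at Nalm6-alone sites against 59.3% at shared peaks.

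Few sites lay right beside a peak of another list. Another list had a peak within 100 bp of 310 sites (2.99%), within 1000 bp of 1598 (15.4%) and within 10000 bp of 6706 (64.8%), and the median distance was 4915.5 bp. At 430 sites (4.15%) the nearest peak of another list was over 100000 bp away. The 310 sites just inside the rule scored 14 and were 428.5 bp wide at the median. The 664 shared peaks just outside it, with 100 bp or less covered by another list, scored 15 and were 401 bp wide.

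Nalm6-alone sites were poorer in GC and CpG than shared peaks but richer in GC than the DNA around them. Median GC in the central 300 bp was 52.7% (interquartile range 48.3% to 57.0%), against 60.3% for shared peaks, while windows 2000 bp from the sites were at 43.7%. At least 10 CpG were found in 19.5% of sites (95% interval 18.7% to 20.2%), against 43.6% of shared peaks. This share was higher than in the single-list peaks of the other lines, which were at 7.83% in JM1-CX, 6.57% in JM1-WT, 14.3% in REH-WT and 13.7% in 697-WT. The antibody used for Nalm6 and 697 was not that of JM1 and REH, and its part in this order was not tested.

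The 2016 CpG-rich sites were mostly away from promoters. Promoters held 9.62% of them, against 4.64% of the other 8338 sites, and intergenic DNA held 38.3%, against 38.7%. A pseudogene was overlapped by 5.46% of CpG-rich sites (95% interval 4.51% to 6.54%), against 1.85% of the rest (1.57% to 2.16%). Processed pseudogenes are copies of spliced messenger RNA and can carry the CpG-rich first exon of their source gene. Those under Nalm6-alone sites included NRBF2P2 with a score of 49 and 23 CpG, SUDS3P1 with 40 and 34, CBX3P1 with 39 and 19, and RPL13P2 with 37 and 18. Others of like score had under 10 CpG, such as ELOBP2 with 42 and 8 and RPLP0P2 with 38 and 2. Reads from such copies and from the parent gene are hard to place uniquely, and the treatment of multiply mapped reads is not stated. Of all Nalm6-alone sites 2.55% overlapped a pseudogene of any kind (2.25% to 2.87%), against 2.11% of shared peaks (1.99% to 2.22%). Among the peaks no wider than 500 bp and scoring no more than 20 the order turned, at 2.08% of Nalm6-alone sites (1.72% to 2.49%) against 2.33% of shared peaks (2.01% to 2.67%), with overlapping intervals. The share of all Nalm6-alone sites overlapping a processed pseudogene was 1.37%, against 0.759% of shared peaks and 0.663% to 1.03% of single-list peaks in the other lines.

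The transcript nearest to a site was protein-coding for 45.6% of Nalm6-alone sites, against 64.1% of shared peaks. It was a long noncoding RNA for 24.5%, against 20.1%, and a pseudogene for 19.1%, against 7.85%. Single-list peaks of the other lines had pseudogenes nearest in 14.4% to 19.2%. Every Nalm6 peak had a gene name, whereas 4.85% to 5.92% of single-list peaks in the other lists had none. The Nalm6 list was numbered up to 73373 but lacked 2479 of these numbers, and the other lists lacked none. Whether peaks without a gene name were left out of the Nalm6 list before deposit, and what that did to the count of sites, was not tested.

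The share of Nalm6 peaks that were Nalm6-alone differed widely between chromosomes. It was highest on chromosome 18 at 23.8% (348 of 1462 peaks, 95% interval 21.6% to 26.1%), followed by chromosome 4 at 21.96%, chromosome 3 at 21.9% and chromosome 5 at 20.0%. It was lowest on chromosome 19 at 7.41% (363 of 4899, 6.69% to 8.18%), chromosome 22 at 7.89% and chromosome 17 at 8.94%. The single-list shares of the other lists moved the same way on chromosomes 18 and 19. They were 32.9% and 17.0% in JM1-CX (28.3% over all chromosomes) and 12.3% and 4.05% in JM1-WT (8.46%). They were 30.8% and 14.8% in REH-WT (24.3%) and 7.37% and 0.995% in 697-WT (5.08%). Chromosomes 18 and 4 are known as gene-poor and 19, 22 and 17 as gene-rich. Within 5 Mb of a chromosome end lay 11.5% of Nalm6-alone sites, against 23.8% of shared peaks. The values of single-list peaks elsewhere were alike, at 9.54% to 12.5%.

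**Figure D4:**
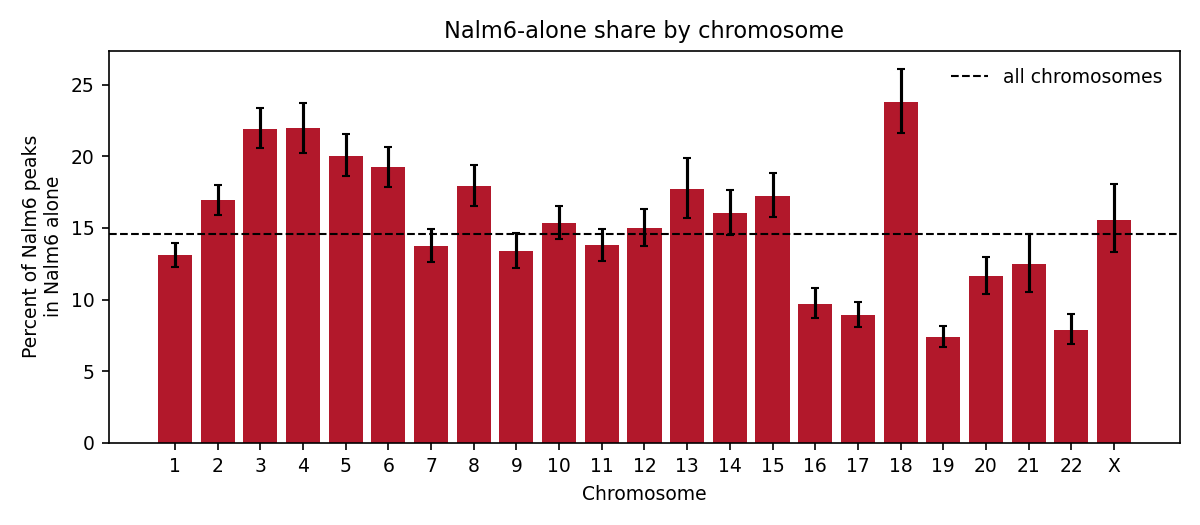
Percent of Nalm6 peaks that were Nalm6-alone on each chromosome (bars), with the 95% exact binomial interval and a dashed line at the share over all chromosomes. Chromosome 18 is highest at 23.8% and chromosome 19 lowest at 7.41%, against 14.6% over all.

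The sites were scattered, with few clusters. They fell in 2482 of 3044 bins of 1 Mb, at a mean of 3.4 and a maximum of 20 per bin, and 157 bins held 10 or more. The fullest bin was at 4 to 5 Mb of chromosome 1, where 20 of 88 Nalm6 peaks were Nalm6-alone and 9 of them were nearest EEF1DP6, a pseudogene of a translation factor subunit. The next were the first and second Mb of chromosomes 10 and X with 17 each, the X bin being in the pseudoautosomal region, where reads from X and Y cannot be told apart. Bins on chromosomes 14, 3, 19 and 11 followed with 16 each.

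Counted by nearest gene name, 6307 of 7910 names (79.7%) had a single site. The names with the most, Y_RNA with 93 sites and Metazoa_SRP with 24, are shared by many small RNA copies and are not single genes. Among single genes EEF1DP6 and NTRK3, a neurotrophin receptor kinase, had 9 sites each, and CSMD1, a very large gene of nervous tissue, had 8 of its 14 Nalm6 peaks. KSR1P1, DLGAP2, AC084030.1, AC104031.1, AJAP1, SHANK2 and EPHB1, an ephrin receptor, had 7 each. DLGAP2 had 71 Nalm6 peaks in all, so 9.86% of them were Nalm6-alone, against 40.9% for NTRK3 and 53.8% for EPHB1.

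Few protein-coding genes had a Nalm6-alone site at a start site. Of 19962 genes, 587 (2.94%) had a site within 1000 bp of a start site. The count was 1271 genes without the REH-WT list and 1008 without the JM1-CX list, 982 where a shared peak had to be covered for 50%, and 142 among Nalm6 peaks scoring at or above the list's median. For 478 of the 587 (81.4%) another list also had a peak at a start site of the gene, near the 84.9% of all protein-coding genes for which this held, and for 406 Nalm6 itself had a shared peak there. The remaining 109 genes (0.546% of all) had a start-site peak in Nalm6 and in no other list. They were led by WDR17, ADGRL4, MS4A13, ANO3, ARMC3 with a score of 40, ZNF502 with 37, NPFFR2 with 36, KLKB1, the plasma kallikrein precursor, with 35, CXCL2, a chemokine that draws neutrophils, with 34 and ITPRID1 with 33.

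Of the 34 B-cell transcription factors on the list that were named in any peak list, 11 were nearest to at least 1 site (32.4%, 95% interval 17.4% to 50.5%). The same held for 21.0% of the 16521 protein-coding genes named, and for 41.7% of those spanning 100.8 kb or more. The factors had a median span of 116.2 kb, against 31.0 kb for all named protein-coding genes. After IKZF1 the highest score was 36, at a start site of TCF4, one of the E proteins of B-cell development, which had 3 sites among 5 Nalm6 peaks. RUNX1, a core factor of blood formation, had 4 sites of 13 peaks with a top score of 21. MEF2C scored 20, ID3 17, ETV6 16, MYB 15, ERG and POU2AF1 12 each and BACH2 11. At the start sites themselves 2 of 35 factors had a Nalm6-alone site (5.71%, 0.7% to 19.2%), TCF4 among them, against 2.94% of all protein-coding genes, and both also had a start-site peak in another list.

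The remaining 23 named factors had no Nalm6-alone site. They included PAX5 with 10 Nalm6 peaks, EBF1 with 3, TCF3 with 14, IRF4 with 12 and POU2F2 with 11, all shared. Of the 148 Nalm6 peaks nearest to genes of the list 19 were Nalm6-alone (12.8%), against 14.6% of all Nalm6 peaks.

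Among genes of the pre-B cell receptor and the B-cell surface 8 of 27 were nearest to a site (29.6%, 13.8% to 50.2%), against 21.0% of all named genes. None of 31 had a site at a start site, beside 2.94% of all protein-coding genes. Of the 87 Nalm6 peaks nearest to genes of this list 11 were Nalm6-alone (12.6%), against 14.6% of all Nalm6 peaks. CRLF2, a cytokine receptor chain overexpressed in some of these leukaemias, had 4 sites of 8 peaks with a top score of 23, but the 2 sites with that score lay 79513 bp and 23342 bp from a start site in the pseudoautosomal region. PLCG2, a lipase downstream of the receptor, scored 23, the kinase SYK 17 and MME, which encodes CD10, 14. CD22, CD79A, IGLL1 and VPREB1, which mark B-cell precursors, had shared peaks only. A peak does not show that a gene was expressed, so the identity of the line was not checked here.

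Genes tied to DUX4-rearranged leukaemia were nearest to a site in 4 of 9 cases (44.4%, 13.7% to 78.8%), against 21.0% of all named genes. AGAP1, an Arf GTPase regulator, had 4 sites of 27 Nalm6 peaks, the strongest scoring 25. ERG, an ETS factor that is often deleted or mis-spliced in this subtype, had 1 site scoring 12, PDGFRA 1 scoring 11 and PTPRM 1 scoring 10. None of the 11 genes of the list had a site at a start site, beside 2.94% of all protein-coding genes. In this list 7 of 50 Nalm6 peaks were Nalm6-alone (14.0%), against 14.6% of all Nalm6 peaks. Peaks found in REH-WT alone were nearest to 4 of the same 9 genes, beside 32.0% of all named genes. Those found in JM1-CX alone were nearest to 5, beside 37.3%.

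Markers of other tissues gave a high count for one list. Of 23 neuron genes 15 were nearest to a site (65.2%, 42.7% to 83.6%), among them SYT1, a synaptic vesicle protein, with a score of 37, and CSMD1 with 30. These genes were long, with a median span of 544.9 kb against 31.0 kb for all named protein-coding genes, and 19 of the 23 spanned 100.8 kb or more. Of all named genes with such spans 41.7% were nearest to a site, against 9.71% of those under 9.13 kb. Of the 19 neuron genes 14 were. All named genes with such spans had a median span of 176.8 kb, under the 544.9 kb of the neuron list, so length was not matched. Peaks in JM1-CX alone were nearest to 15 of the 23 and peaks in REH-WT alone to 13, beside 37.3% and 32.0% of all named genes. The 2 smaller sets gave 4 of 23 each, beside 7.95% of all named genes in JM1-WT and 2.39% in 697-WT. T-cell markers were nearest to a site in 6 of 19 cases, myeloid markers in 1 of 18 (S100A9), erythroid and megakaryocyte markers in 2 of 16 and markers of liver, muscle and pancreas in 3 of 16. The share of all named genes was 21.0%. Median spans of these lists were 26.3, 12.3, 11.3 and 11.2 kb, in the order given. Of all named genes spanning 9.13 to 21.6 kb 11.2% were nearest to a site.

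Signalling and growth control lists gave counts on either side of the 21.0% of all named genes. Cytokine receptors and JAK-STAT genes had a site nearest in 10 of 28, led by the interleukin-10 receptor chain IL10RA with a score of 31. The PI3K and inositol lipid list had 8 of 30, led by the lipid phosphatase INPP4A with 34 and the PI3K adaptor PIK3R5 with 29. Chromatin regulators had 8 of 30, led by the DNA methyltransferase DNMT3A with 27, then KMT2C and ARID1B with 23 each. The NOTCH, WNT and TGF-beta list had 9 of 35, adhesion and homing genes 5 of 28, cell cycle genes 3 of 32 and HOX genes 2 of 34. The cell cycle genes had a median span of 18.1 kb and the HOX genes one of 4.37 kb. Of all named genes spanning 9.13 to 21.6 kb 11.2% were nearest to a site, and of shorter ones 9.71%. Of all Nalm6 peaks 14.6% were Nalm6-alone. Among peaks nearest to each list the share was 14.7% for cytokine receptors and JAK-STAT and 13.3% for chromatin regulators. It was 7.88% for NOTCH, WNT and TGF-beta, 7.32% for adhesion and homing, 4.97% for PI3K (9 of 181), 4.35% for cell cycle and 4.0% for HOX.

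A list of 17 BCL2 family genes, which set the threshold for apoptosis, gave no Nalm6-alone site. All 35 Nalm6 peaks nearest to the 16 of them named in any list were shared, while 14.6% of all Nalm6 peaks were Nalm6-alone. A count of 0 of 16 genes has an upper 95% limit of 20.6%, beside 21.0% of all named protein-coding genes. The 16 genes had a median span of 18.9 kb, against 31.0 kb for all named protein-coding genes. Of named genes spanning 9.13 to 21.6 kb 11.2% were nearest to a site, which is under that limit. Peaks in JM1-CX alone and REH-WT alone were each nearest to 7 of the 16, beside 37.3% and 32.0% of all named genes. Peaks in JM1-WT alone and in 697-WT alone were nearest to none. The list did not hold BCL2L14, named here after its values were seen, which was nearest to 4 sites with a top score of 29. A site scoring 16 lay within 1000 bp of a start site of BCL2L14, and no other list had a peak at its start sites. Among genes of CK2 and of Ikaros partners, 4 of 26 were nearest to a site (15.4%, 4.36% to 34.9%), against 21.0% of all named genes. Besides IKZF1 these were CSNK2A3, an intronless copy of a CK2 catalytic subunit, with 4 sites of 5 peaks and a top score of 20, and MTA3 and GATAD2A, subunits of the NuRD remodelling complex, with 12 each. The strongest CSNK2A3 site lay 56521 bp from a start site, so nearness here does not place it at that gene's promoter.

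Short motifs were counted on both strands in the central 300 bp of each peak. The long Ikaros core TGGGAA was present in 26.3% of Nalm6-alone sites (95% interval 25.5% to 27.2%), against 26.3% of shared peaks and 24.2% of windows 2000 bp from the sites. It was in 27.6% to 29.2% of single-list peaks of the other lines and in 24.0% of 35116 RefSeq promoters of the same length. The share at Nalm6-alone sites was 1.09 times that of nearby DNA. The short core GGGAA, which TGGGAA contains, was in 59.1% of Nalm6-alone sites (58.1% to 60.04%), against 65.5% of shared peaks (65.2% to 65.9%) and 52.2% of windows 2000 bp from the sites. The equal shares of TGGGAA in both Nalm6 sets did not hold within ranges of GC. At 60% GC or more the long core was in 28.9% of Nalm6-alone sites (26.5% to 31.4%), against 23.3% of shared peaks (22.8% to 23.8%). At 50% to 60% GC it was in 27.3% (26.1% to 28.4%), against 30.2% (29.6% to 30.8%). At 40% to 50% GC it was in 24.0% (22.4% to 25.6%), against 27.4% (26.2% to 28.8%). Under 40% GC it was in 21.9% (18.3% to 26.0%), against 18.8% (15.5% to 22.4%). These ranges held 13.0%, 54.6%, 27.9% and 4.49% of the sites, in the order given.

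Other motifs departed further from nearby DNA. The E-box CAGGTG, bound by TCF3 and its relatives, was in 35.1% of sites (34.2% to 36.0%), against 36.1% of shared peaks and 26.5% of windows 2000 bp away. The GC box GGGGCGGGG was in 1.39%, against 5.89% of shared peaks, with 0.377% of windows away from the sites. The ETS motif CCGGAAG was in 1.55%, against 4.17%, with 0.869% away. The CTCF pattern CCNNNAGGGGGC was in 0.570%, against 1.35%, with 0.193% away. The AT-rich motifs lay on the other side of nearby DNA: the RUNX motif TGTGGTT was in 4.24% of sites and 5.77% of windows away, and AGATAAG, of the GATA family, in 2.74% and 4.05%. These windows had lower GC than the sites, and the part of base composition in these ratios was not tested.

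**Figure D5:**
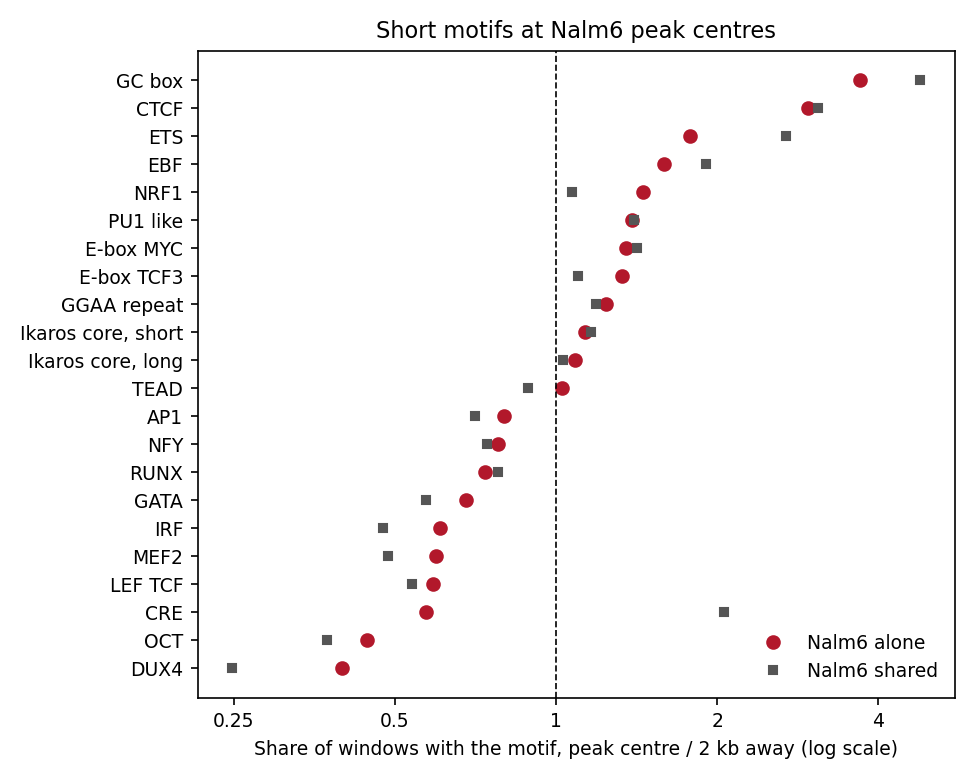
Ratio of the share of central 300 bp windows with a motif to the share of windows 2000 bp away (x axis, log scale; 1 means equal) for 22 short motifs at Nalm6-alone sites (red) and shared Nalm6 peaks (grey). The ratio at Nalm6-alone sites was 3.69 for the GC box, 1.09 for the long Ikaros core and 0.398 for the DUX4 motif.

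The DUX4 motif TAANNNAATCA was present in 84 Nalm6-alone sites, 0.811% (95% interval 0.648% to 1.00%), against 0.306% of shared peaks. It was more frequent away from the peaks, in 2.04% of windows 2000 bp from the sites, and it was in 0.863% to 1.31% of single-list peaks of the other lines and in 0.888% of RefSeq promoters. Within ranges of GC the 2 sets were closer. Under 40% GC 4.09% of Nalm6-alone sites had the motif, against 3.72% of shared peaks. At 40% to 50% GC the shares were 1.31% and 1.43%, at 50% to 60% GC 0.424% and 0.307%, and at 60% GC or more 0.223% and 0.0855%, and the intervals of each pair overlapped. The middle bases of the pattern, written N, could be any base, so a match need not be a full DUX4 site. The strongest of the 84 sites are shown as examples of this loose pattern. They lay in CPT1A with a score of 53 (chr11:68773063-68773362), nearest AC016717.1 in an intron of NYAP2 with 47 (chr2:225620530-225620829) and at PPP1R14BP2, a pseudogene, with 33 (chr2:207681282-207681581). Each line gives the central 300 bp on the plus strand of GRCh38, and capitals mark the motif, which reads 5′ to 3′ on the minus strand.
CPT1A: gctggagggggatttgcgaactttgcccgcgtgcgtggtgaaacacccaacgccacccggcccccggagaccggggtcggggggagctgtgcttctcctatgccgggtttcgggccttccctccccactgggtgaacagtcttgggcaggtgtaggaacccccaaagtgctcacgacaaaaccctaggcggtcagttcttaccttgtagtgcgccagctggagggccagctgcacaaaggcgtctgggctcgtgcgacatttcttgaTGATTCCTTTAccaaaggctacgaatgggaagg
AC016717.1: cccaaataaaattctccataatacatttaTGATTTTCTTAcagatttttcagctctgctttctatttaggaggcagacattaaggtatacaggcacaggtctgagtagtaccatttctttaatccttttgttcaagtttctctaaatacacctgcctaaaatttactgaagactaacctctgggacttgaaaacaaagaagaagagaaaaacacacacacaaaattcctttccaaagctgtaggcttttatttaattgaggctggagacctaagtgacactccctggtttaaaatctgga
PPP1R14BP2: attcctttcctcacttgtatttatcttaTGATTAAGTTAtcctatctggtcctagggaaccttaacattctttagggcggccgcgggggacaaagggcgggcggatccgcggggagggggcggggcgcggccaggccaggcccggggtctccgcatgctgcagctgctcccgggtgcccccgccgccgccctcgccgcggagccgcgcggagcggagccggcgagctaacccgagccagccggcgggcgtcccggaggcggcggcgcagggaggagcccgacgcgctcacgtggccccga
The CPT1A window was 60.7% GC with 18 CpG and the PPP1R14BP2 window 70.7% GC with 38 CpG, while the AC016717.1 window was 35.7% GC with none. The next sites with the motif scored 32, nearest MROH9, and 26, nearest MUC5AC. A match of letters does not show that a factor was bound.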

How the data were processed

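Ikaros chromatin immunoprecipitation was sequenced in 6 Ikaros libraries with 5 input libraries from established human cell lines, and 5 peak lists were analysed, 1 per condition. Per the submitters' processing notes, the tools included Bowtie2 2.3.4.3, MACS2 2.1.1 and HOMER 4.10 with build GRCh38; how 2 Nalm6 libraries became 1 list is not stated. Each deposited list gives, per the file headers, a peak's position, score, annotation and nearest transcript. The score is the authors' own, a whole number from 10 up, and was used to describe and rank peaks within a list. Read depth is unknown here, and more peaks in a list does not mean more binding.

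Overlaps of 1 bp or more were found with own code in Python 3.11.15 (numpy 2.4.6, pandas 2.3.3, scipy 1.17.1, pysam 0.24.0), tested on simulated intervals; figures used matplotlib 3.10.9. Start sites, pseudogenes and exons came from GENCODE release 44, sequences from GRCh38 and promoters from RefSeq (GRCh38). Shares carry exact Clopper-Pearson 95% intervals and medians order-statistic intervals. Both cover counting error only and treat peaks as independent, which neighbouring peaks are not. Motifs were counted in the central 300 bp. All 28 Nalm6 peaks on other chromosomes were left out.

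The named sites were the 10 highest-scored in promoters and outside them, the 5 widest, the 10 gene names with most sites, the 5 fullest bins, up to 4 genes per list by score and the 5 highest-scored with the DUX4 motif. Other genes are named because their list gives them in full or to show lists with no site. Pseudogenes under sites were picked from the highest-scored sites that overlap one. The sites, gene lists and tests were chosen with earlier results of these data known. Some items that these rules name are not reported here.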

Additional observations from a re-analysis of the deposited data

How the results depend on the processing

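The rule or the lists were changed in 8 other versions. In all 8 the promoter share and the median GC were lower at Nalm6-alone sites than at shared Nalm6 peaks. The versions re-cut the same peaks, so their agreement is not independent support. The site in IKZF1 also scored highest in all 8. By the main rule it scored 224, against 67 for the next site, and lay 2329 bp from another list's peak. That it stayed highest was therefore nearly fixed beforehand. Of 86 other values computed for the number of sites, their makeup and their motifs, 42 stayed within the interval of the reported value (within 1.5 times for counts) and 44 moved. Leaving out the JM1-WT or 697-WT list moved none of the values. Without the REH-WT list 16867 sites were found, with promoter, intron and intergenic shares of 6.75%, 45.6% and 36.8%, median score 15, width 409 bp and GC 54.3%, TGGGAA in 27.2% and 1271 genes with a start-site peak. Without JM1-CX the promoter share was 6.34%, the intron share 45.5%, the median score 15, width 393 bp and GC 54.0%, and the genes numbered 1008. Counting a peak as shared only where another list covered 50% of it gave a promoter share of 6.49%, an intergenic share of 37.6%, a median score of 15, a width of 430 bp and 982 genes; counting peaks within 1000 bp as shared gave a width of 364 bp.

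Nalm6 peaks scoring at or above the list's median gave 2086 sites with promoter, intron and intergenic shares of 7.81%, 44.3% and 36.8%, score 23, width 345 bp, GC 56.7%, TGGGAA in 28.1%, the DUX4 motif in 0.527% and 142 genes. With each list limited to its 19610 top-scored peaks there were 3357 sites, with shares of 12%, 39.6% and 31.2%, score 33, width 554 bp, GC 61.0% and the DUX4 motif in 0.506%. Searching the central 200 bp found TGGGAA in 18.4% of sites and the DUX4 motif in 0.512%; searching whole peaks found them in 38.0% and 1.5%. A start site within 1000 bp of the centre was found for 10.3% of sites, against the 5.61% that the authors' annotation puts in promoters.

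No paired analysis was possible because each condition had 1 peak list and no result came from a test. Read depth was not analysed here, and absence from a list means only that no peak was listed there.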
